A study of Mus musculus with 6 samples.

Results

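The small leucine-rich proteoglycans examined here are 9 genes of 1 family, *Dcn*, *Bgn*, *Lum*, *Fmod*, *Omd*, *Ogn*, *Aspn*, *Prelp* and *Podn*, out of 54331 genes listed. They were taken by gene symbol, and the set was chosen from values already measured in these wells, so every difference between the groups is given for them as a description. Whether a member met the call rule of the fit across all genes is stated only to place it beside the other genes, and no p-value is given for it. RNA-seq was performed on reprogramming mouse embryonic fibroblasts (MEFs) at 10 days postinfection (dpi), with 3 wells in each of 2 groups, OSKA − 4OHT and OSKA + 4OHT. Both groups had received Oct4, Sox2 and Klf4 (OSK) together with AKT-MER, by retroviral vectors. In AKT-MER the kinase AKT is joined to a changed estrogen receptor, and 4-hydroxytamoxifen (4OHT) switches it on. From 3 dpi the OSKA + 4OHT wells received 1 µM 4OHT, and the OSKA − 4OHT wells received a mock treatment with ethanol, the vehicle. The comparison asks which transcripts differ when AKT is active during reprogramming. The MEFs came from male E13.5 embryos of Oct4-EGFP transgenic mice on a mixed C57BL/6, DBA/2 and ICR background. Several embryos had been pooled, and the wells were plated from 1 transduced culture, so the spread between wells does not include the spread between animals. Each well held reprogrammed and unreprogrammed cells together. Wells with 4OHT but without AKT-MER were not analysed here, so 4OHT and AKT activation cannot be told apart.

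Small leucine-rich proteoglycans are secreted proteins of the extracellular matrix, each built on a core of leucine-rich repeats that in most members carries chondroitin, dermatan or keratan sulfate chains. They bind collagen fibrils and govern their thickness and spacing, and several of them also hold growth factors such as TGF-β or signal through receptors at the cell surface. Fibroblasts are a main source of these proteins. The family is divided into classes by sequence: *Dcn*, *Bgn* and *Aspn* belong to class I, *Lum*, *Fmod*, *Prelp* and *Omd* to class II, *Ogn* to class III and *Podn* to class V.

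The family lies in a few tight groups in the genome, and the differences between the wells are described along these groups further on. On GRCm38, with gene models of GENCODE M21, *Prelp* (chr1:133910304-133921414, minus strand) is 115.8 kb from *Fmod* (chr1:134037254-134048277, plus strand). *Dcn* (chr10:97479609-97518143) and *Lum* (chr10:97565128-97572703) lie 47.0 kb apart on the plus strand of chromosome 10. *Aspn* (chr13:49544443-49567565), *Omd* (chr13:49582462-49592822) and *Ogn* (chr13:49608046-49624501) follow each other on the plus strand of chromosome 13 with gaps of 14.9 kb and 15.2 kb. All 3 lie within the span of *Cenpp*, a centromere protein gene on the opposite strand. *Podn* (chr4:108014791-108096445, minus strand) and *Bgn* (chrX:73483602-73495933, plus strand) have no other member on their chromosome.

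The promoters of the chromosome 13 group are shown because its 3 genes are neighbours that were all lower on average in OSKA + 4OHT. Each sequence is the 250 bases before the RefSeq start site on GRCm38.p6, plus strand, 5′ to 3′, at chr13:49544193-49544442 for *Aspn*, chr13:49582212-49582461 for *Omd* and chr13:49607765-49608014 for *Ogn*. Capitals mark the TATA box letters TATAAA on either strand (TTTATA when on the other strand) and the TEAD letters GGAATG.
Aspn: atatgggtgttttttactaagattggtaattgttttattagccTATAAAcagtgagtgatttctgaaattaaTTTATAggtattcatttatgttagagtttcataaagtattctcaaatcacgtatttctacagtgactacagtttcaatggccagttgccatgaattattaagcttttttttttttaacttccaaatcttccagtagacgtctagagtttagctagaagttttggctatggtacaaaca
Omd: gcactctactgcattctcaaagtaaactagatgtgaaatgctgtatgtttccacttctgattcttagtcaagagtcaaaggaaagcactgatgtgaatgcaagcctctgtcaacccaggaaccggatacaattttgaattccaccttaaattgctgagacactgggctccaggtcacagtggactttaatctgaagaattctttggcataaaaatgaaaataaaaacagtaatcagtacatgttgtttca
Ogn: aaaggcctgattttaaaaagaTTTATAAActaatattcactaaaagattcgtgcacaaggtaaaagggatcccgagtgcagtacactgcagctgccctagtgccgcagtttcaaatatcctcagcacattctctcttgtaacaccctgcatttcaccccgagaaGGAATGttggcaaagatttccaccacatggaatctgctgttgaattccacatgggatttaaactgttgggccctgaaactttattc
These 3 windows were AT-rich, with a GC content of 30% for *Aspn*, 38.4% for *Omd* and 42% for *Ogn*, against a median of 52.4% over the 32851 mouse promoters of the RefSeq table. *Aspn* held the TATA box letters at bases 207 to 202 and, on the other strand, at bases 178 to 173, counted back from the start site. *Ogn* held them on both strands, overlapping each other, at bases 229 to 222, and the TEAD letters at bases 86 to 81. The TATA box letters were found on either strand in 12.4% and the TEAD letters in 12.6% of all promoters of the same length. The *Omd* window held none of the 6 motifs searched, which were these 2, the AP-1 letters TGANTCA, the SMAD letters CAGAC, the GC box letters GGGCGG and the FOXO letters TGTTTAC. The last 4 were found in 6.75%, 42.2%, 32.7% and 3.17% of all promoters. A match is a description of the letters and not of a binding site, and an absent match says only that these letters are not in this window.

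Values are in TPM, the share of a well's transcripts given to a gene after correction for transcript length, scaled to a sum of 1000000 per well. Levels may thus be compared between genes. An approximate relative depth, read from the steps between low values, ran from 0.497 to 1 of the deepest well (OSKA − 4OHT replicate 2). These steps were blurred: 37.0% to 40.7% of the low values lay within 0.15 of a whole number of reads, where evenly spread values would give 30%. A 0 is written as listed at 0, because even among 5708 genes whose median exceeded 20 TPM, 97 had a 0 in some well. A log2 difference is the mean of log2(TPM + 0.5) in OSKA + 4OHT minus that in OSKA − 4OHT, with a standard error (SE) from a limma model fitted across the 15382 genes that averaged 1 TPM or more. The added 0.5 TPM makes the difference of low genes smaller. The call rule is an adjusted p-value (Benjamini-Hochberg) below 0.05 with any fold change. All 9 genes passed the filter on low values, *Omd* and *Podn* through their OSKA − 4OHT wells, since their OSKA + 4OHT means were under 1 TPM.

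The fibroblast label was checked first. The fibroblast genes *Vim*, *Thy1*, *Prrx1* and *Fbn1* were present in every well, and 11 of 12 fibroblast markers averaged 1 TPM or more. *Tcf21* was listed at 0 in all wells but OSKA − 4OHT replicate 3. The summed fibroblast markers ran from 6116 to 7443 TPM in OSKA − 4OHT and from 3821 to 4596 TPM in OSKA + 4OHT. Most of this sum was *Vim* (means of 3844 and 2668 TPM) and *S100a4* (1902 and 828.8 TPM), and of the 11 tested markers 2 were called lower, *Pdgfrb* and *S100a4*, and 0 higher. Among all genes tested, 3.52% were called higher and 1.97% lower, and these shares also stand beside the marker counts that follow. *Thy1* had the higher mean in OSKA + 4OHT (179.4 ± 40.5 and 293.0 ± 86.7 TPM), as did *Fap* (3.23 and 3.90 TPM), and neither was called. Smooth muscle markers, which activated fibroblasts also express, summed to 1111 to 1260 TPM and to 177.2 to 251.9 TPM in the same order, and 4 of the 5 were called lower. Epithelial markers went the other way, from 32.8 to 73.8 TPM up to 151.7 to 168.0 TPM, with 3 of 6 called higher. Pluripotent cell markers went from 2.87 to 3.69 TPM up to 36.5 to 53.6 TPM, with 4 of the 6 tested called higher. Of these 4, *Dppa5a*, *Nanog* and *Zfp42* averaged under 1 TPM in OSKA − 4OHT and so passed the filter on low values through the OSKA + 4OHT wells. In bulk wells, fewer cells of a type and less RNA per cell cannot be told apart, and the part of these shifts in the values below was not tested.

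Of the 9 genes, 7 were lower and 2 higher on average in OSKA + 4OHT, with a median log2 difference of −0.60, beside a median of 0.14 over all genes tested. The groups did not overlap for 6 of them, 2 higher and 4 lower, where the same held for 18.1% of all genes tested in the higher direction and 10.0% in the lower. The call rule was met by 1 gene in the higher direction (*Lum*) and by 2 in the lower (*Bgn* and *Omd*), where 3.52% of all genes tested were called higher and 1.97% lower. Since the genes were selected on this contrast, nothing is read from these counts.

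**Figure D1:**
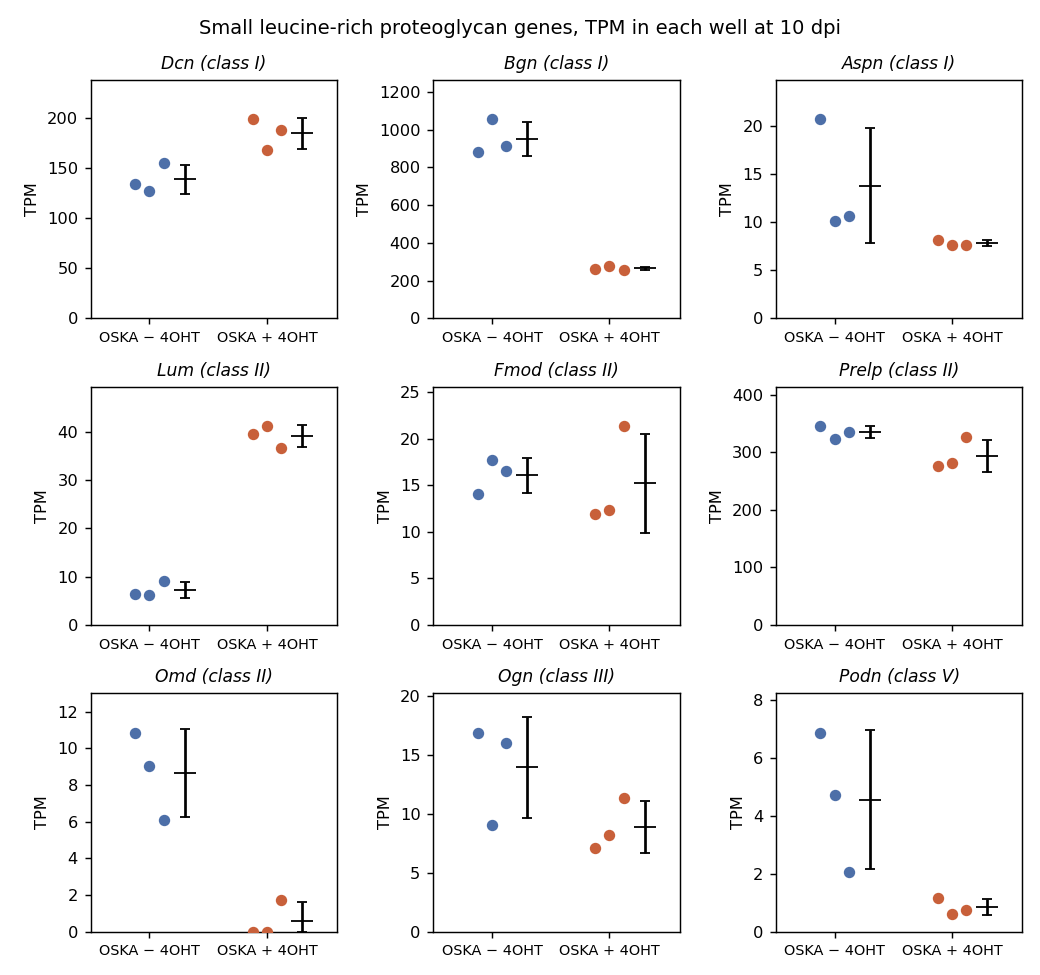
TPM of each of the 9 genes in the 3 OSKA − 4OHT wells (blue) and the 3 OSKA + 4OHT wells (orange), on a linear axis from 0 in each panel. The line and whiskers beside each group are the mean ± SD (n = 3, cut off at 0 for *Omd*), and the OSKA + 4OHT wells lie apart from the others in *Bgn*, *Aspn*, *Omd* and *Podn*, below them, and in *Dcn* and *Lum*, above them.

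In class I, the 2 close relatives *Bgn* and *Dcn* went in opposite directions. *Bgn* encodes biglycan, a matrix proteoglycan with chondroitin or dermatan sulfate chains that binds collagen and, when set free, Toll-like receptors. *Bgn* was at 883.2, 1054 and 914.6 TPM in OSKA − 4OHT replicates 1, 2 and 3 and at 260.1, 275.1 and 258.1 TPM in those of OSKA + 4OHT. Every OSKA + 4OHT well lay far below every OSKA − 4OHT well, and the 3 OSKA + 4OHT wells were close to each other. The mean was 950.6 ± 91.0 TPM in OSKA − 4OHT and 264.4 ± 9.25 TPM in OSKA + 4OHT (SD, n = 3), which is 3.59-fold lower, with a log2 difference of −1.84 (SE 0.107).

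The 250 bases before the *Bgn* start site (RefSeq, GRCm38.p6, chrX:73483351-73483600, plus strand) are shown because *Bgn* carried most of the difference in the family's summed level and because its promoter is of another kind than those of the chromosome 13 group. Capitals mark the GC box letters GGGCGG on the other strand, read here as CCGCCC.
Bgn: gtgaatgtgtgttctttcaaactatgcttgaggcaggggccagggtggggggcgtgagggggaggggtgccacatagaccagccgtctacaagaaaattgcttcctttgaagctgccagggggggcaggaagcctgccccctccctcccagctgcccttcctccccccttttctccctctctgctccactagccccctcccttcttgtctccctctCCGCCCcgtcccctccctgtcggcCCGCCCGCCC
This window had a GC content of 64.4%. It held the GC box letters 3 times within its last 34 bases, at bases 34 to 29, 10 to 5 and 6 to 1 before the start site, the last 2 overlapping.

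*Dcn* encodes decorin, the best known collagen-binding member, which also holds TGF-β and binds several receptor tyrosine kinases. It was at 133.4, 126.7 and 154.9 TPM in OSKA − 4OHT and at 198.2, 167.8 and 187.9 TPM in OSKA + 4OHT. All 3 OSKA + 4OHT wells were above the OSKA − 4OHT wells, by a narrow margin for replicate 2. The means were 138.3 ± 14.8 and 184.6 ± 15.4 TPM (SD, n = 3), 1.33-fold higher, with a log2 difference of 0.42 (SE 0.134) that was 0.29 after rescaling the wells by the trimmed mean of log ratios. *Dcn* did not meet the call rule. The *Bgn* level was 6.95 ± 1.24 times that of *Dcn* in OSKA − 4OHT and 1.44 ± 0.173 times in OSKA + 4OHT (SD, n = 3). *Aspn* encodes asporin, a class I member with a run of aspartate residues that binds collagen and TGF-β. It was at 20.7, 10.1 and 10.6 TPM in OSKA − 4OHT and at 8.16, 7.61 and 7.63 TPM in OSKA + 4OHT. The groups did not overlap, but replicate 1 of OSKA − 4OHT was well above the other wells of its group. The means were 13.8 ± 5.98 and 7.80 ± 0.312 TPM, with a log2 difference of −0.71 (SE 0.309) that was −0.39 without that well. *Aspn* did not meet the call rule.

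Class II held the genes with the highest and the lowest fitted difference of the family, *Lum* and *Omd*. *Lum* encodes lumican, a keratan sulfate proteoglycan that spaces collagen fibrils in cornea and skin. It was at 6.35, 6.30 and 9.12 TPM in OSKA − 4OHT and at 39.5, 41.1 and 36.7 TPM in OSKA + 4OHT. Every OSKA + 4OHT well was far above every OSKA − 4OHT well. The means were 7.26 ± 1.61 and 39.1 ± 2.23 TPM (SD, n = 3), 5.39-fold higher, with a log2 difference of 2.37 (SE 0.205). The call of *Lum* was lost with the replicate number as a block in the model. *Omd* encodes osteomodulin, also called osteoadherin, a keratan sulfate proteoglycan best known from bone. It was at 10.8, 9.02 and 6.08 TPM in OSKA − 4OHT, while in OSKA + 4OHT replicates 1 and 2 were listed at 0 and replicate 3 at 1.76 TPM. All OSKA + 4OHT wells were below the OSKA − 4OHT wells, and replicate 3 was the only 1 of them with a value. By the approximate depth these values stand for about 7.25 to 30.4 reads per OSKA − 4OHT well and about 3.10 to 4.74 reads in OSKA + 4OHT replicate 3. For a bound, the wells listed at 0 were taken at 3 reads each, which is 1.62 TPM in replicate 1 and 1.5 TPM in replicate 2 with the shortest coding transcript, and replicate 3 was kept at its value. The OSKA − 4OHT mean of 8.65 ± 2.40 TPM (SD, n = 3) was then 5.32-fold higher than the level in OSKA + 4OHT. This fold limits the wells listed at 0 only. Replicate 3 rests on few reads and was given no upper limit, so the fold is no strict lower bound. The fitted log2 difference of −3.43 (SE 0.684) rests on the added 0.5 TPM and is no bound. The call for *Omd* was lost when any 1 well other than OSKA + 4OHT replicate 3 was left out, with log2 differences of −4.16 to −3.07 over the 6 fits that each leave out 1 well. It was also lost under other settings, such as a pseudocount of 0.1, no filter on low genes and no mean-variance trend in the model, and *Omd* was not tested with a filter of 5 TPM.

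The other class II genes differed little. *Prelp* encodes prolargin, a basic member that links basement membranes to collagen. It was at 345.4, 323.9 and 335.8 TPM in OSKA − 4OHT and at 275.8, 280.8 and 326.4 TPM in OSKA + 4OHT. OSKA + 4OHT replicate 3 lay within the OSKA − 4OHT range and the other wells of its group lay below it. The means were 335.0 ± 10.8 and 294.3 ± 27.9 TPM, with a log2 difference of −0.19 (SE 0.111). It was −0.32 after rescaling the wells by the trimmed mean of log ratios. *Fmod* encodes fibromodulin, which binds collagen next to lumican and assists its cross-linking. It was at 14.0, 17.7 and 16.6 TPM in OSKA − 4OHT and at 11.9, 12.4 and 21.3 TPM in OSKA + 4OHT. The groups overlapped, with the lowest and the highest wells both in OSKA + 4OHT. The means were 16.1 ± 1.88 and 15.2 ± 5.31 TPM, with a log2 difference of −0.12 (SE 0.271), which was −0.39 without OSKA + 4OHT replicate 3 and 0.02 without OSKA + 4OHT replicate 1. *Prelp* stayed close to 20 times the level of *Fmod*, at 21.1 ± 3.24 in OSKA − 4OHT and 20.4 ± 4.41 in OSKA + 4OHT (SD, n = 3).

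The remaining classes were low in every well. *Ogn* encodes osteoglycin, also called mimecan, a class III member of many connective tissues. It was at 16.8, 9.03 and 16.0 TPM in OSKA − 4OHT and at 7.13, 8.20 and 11.3 TPM in OSKA + 4OHT. The groups overlapped, since OSKA − 4OHT replicate 2 lay below OSKA + 4OHT replicate 3. The means were 13.9 ± 4.27 and 8.88 ± 2.17 TPM, with a log2 difference of −0.60 (SE 0.313). *Podn* encodes podocan, a class V member. It was at 6.85, 4.72 and 2.08 TPM in OSKA − 4OHT and at 1.18, 0.626 and 0.754 TPM in OSKA + 4OHT. The groups did not overlap, but the OSKA − 4OHT wells themselves differed widely. The means were 4.55 ± 2.39 and 0.853 ± 0.290 TPM, with a log2 difference of −1.79 (SE 0.512) that did not meet the call rule. This difference also rests on the added 0.5 TPM, and ran from −2.28 after quantile normalization to −1.13 with a pseudocount of 2. These values stand for about 5.54 to 23.2 reads per OSKA − 4OHT well and 2.80 to 4.90 reads per OSKA + 4OHT well. No fold is given for *Podn*, since these are few reads.

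**Figure D2:**
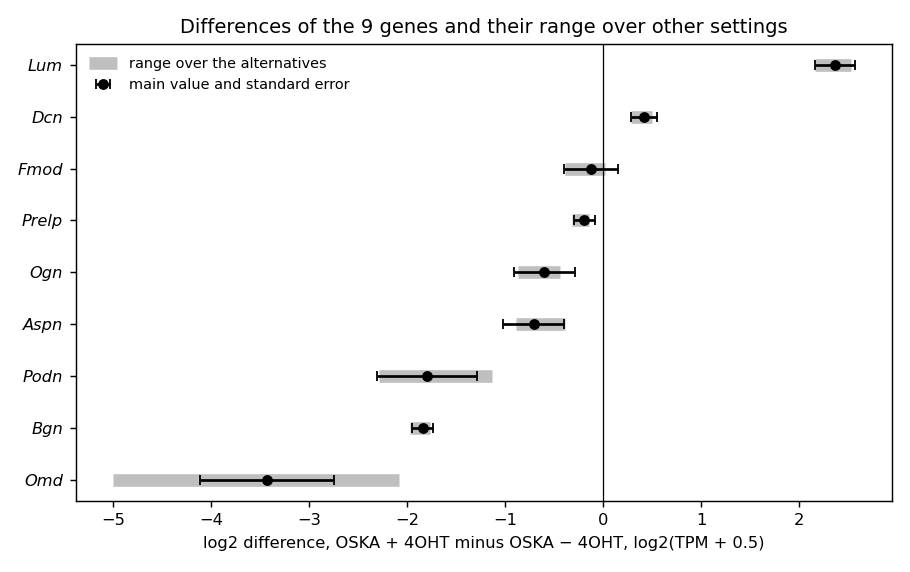
Log2 difference of each gene (black point, whiskers 1 standard error) between OSKA + 4OHT and OSKA − 4OHT on the log2(TPM + 0.5) scale, with the range over the alternative settings and left-out wells in grey. *Bgn* (−1.97 to −1.76) and *Lum* (2.16 to 2.53) have narrow ranges, and *Omd* (−5.01 to −2.08) has the widest.

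Added up, the 9 genes came to 1438 to 1561 TPM in OSKA − 4OHT and 793.7 to 851.9 TPM in OSKA + 4OHT. The means of the sum were 1488 ± 65.0 and 815.8 ± 31.5 TPM (SD, n = 3). Without *Bgn*, the sum of the other 8 was 537.7 ± 26.2 TPM in OSKA − 4OHT and 551.4 ± 38.5 TPM in OSKA + 4OHT, and the ranges overlapped, so the lower sum was carried by *Bgn*. *Bgn* made up 63.8 ± 3.26% of the sum in OSKA − 4OHT and 32.5 ± 2.18% in OSKA + 4OHT. The share of *Prelp* was 22.6 ± 1.67% and 36.0 ± 2.04%, and that of *Dcn* was 9.32 ± 1.23% and 22.6 ± 1.85%. *Lum* took 0.489 ± 0.117% of the sum in OSKA − 4OHT and 4.80 ± 0.449% in OSKA + 4OHT. The shares of 1 sum are tied to each other, so a lower share of *Bgn* raises the others.

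**Figure D3:**
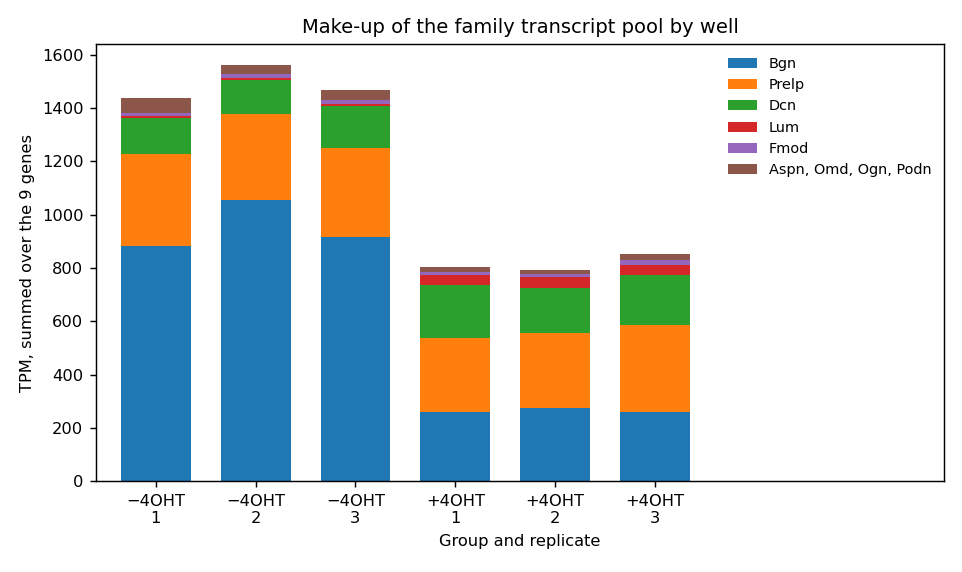
TPM summed over the 9 genes in each well, stacked by gene, on a linear axis from 0. The OSKA + 4OHT columns (793.7 to 851.9 TPM) are lower than the OSKA − 4OHT columns (1438 to 1561 TPM), and most of the missing height is *Bgn*.

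The order of the levels also differed. In OSKA − 4OHT it ran *Bgn*, *Prelp*, *Dcn*, *Fmod*, *Ogn*, *Aspn*, *Omd*, *Lum* and *Podn*. The first 3 lay apart from each other and from the rest in every well, while the ranges of *Fmod*, *Ogn* and *Aspn* overlapped. The range of *Omd* overlapped those of *Ogn*, *Aspn*, *Lum* and *Podn*, and *Lum* also overlapped *Ogn* and *Podn*. In OSKA + 4OHT it ran *Prelp*, *Bgn*, *Dcn*, *Lum*, *Fmod*, *Ogn*, *Aspn*, *Podn* and *Omd*. *Prelp* and *Bgn* were close, with a lowest *Prelp* well of 275.8 TPM and a highest *Bgn* well of 275.1 TPM, and *Bgn* was at 0.905 ± 0.10 times the level of *Prelp*, against 2.84 ± 0.364 times in OSKA − 4OHT. The ranges of *Ogn* and *Aspn* overlapped, as did those of *Podn* and *Omd*.

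Within each of the 3 genome groups the fitted differences had 1 sign and varied in size, except that *Fmod* on chromosome 1 was near 0 and turned to 0.02 without OSKA + 4OHT replicate 1. On chromosome 10, *Dcn* and *Lum* were both higher, yet by 0.42 and 2.37 on the log2 scale, and the *Lum* level was 0.0521 ± 0.00598 times that of *Dcn* in OSKA − 4OHT and 0.213 ± 0.0275 times in OSKA + 4OHT. *Kera*, the gene of keratocan, lies 34.2 kb beyond *Lum* and had 0.632, 0 and 0 TPM in OSKA − 4OHT and 0.723, 0.70 and 2.04 TPM in OSKA + 4OHT, too low to be tested. *Epyc*, the gene of epiphycan, lies 30.4 kb further and was listed at 0 in all wells but OSKA + 4OHT replicate 1, at 0.543 TPM. On chromosome 13, *Aspn*, *Omd* and *Ogn* were all lower on average, and only *Ogn* overlapped between the groups. *Ecm2*, 11.7 kb before *Aspn*, had means of 0.50 ± 0.267 and 0.298 ± 0.398 TPM, too low to be tested. On chromosome 1, *Prelp* and *Fmod* overlapped between the groups, and *Optc*, the gene of opticin 2.30 kb from *Prelp*, had means of 0.890 ± 0.496 and 0.926 ± 0.826 TPM. These neighbours at or near 1 TPM or less stand for few reads. Over exons, *Prelp* shares 350 bases (9.68%) with *Gm15851* and *Aspn* shares 7 bases (0.297%) with *Cenpp*, each on the opposite strand, and the other 7 genes share none. No setting for strand in the counting is given in the sources used here, so whether reads of *Prelp* and *Gm15851* over those bases were kept apart is unknown, although the library kit marks strand. *Omd* resembles the transcript of *Gm4419* over 179 of its 2249 bases (97.2% identity), so a part of the *Omd* reads may be uncertain. *Podn* resembles *Scyl2* over 55 of its 3170 bases (87.3%), a shorter and less alike stretch whose effect on the *Podn* reads was not tested.

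**Figure D4:**
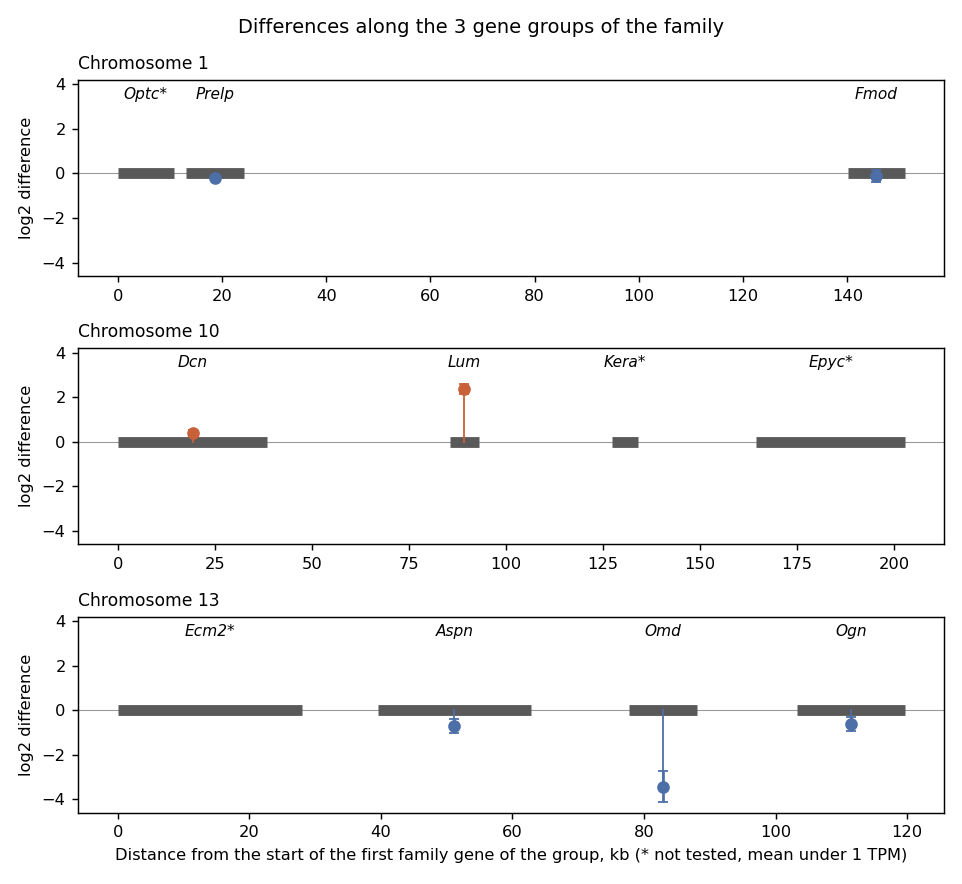
Log2 difference (points, whiskers 1 standard error) of the family genes on chromosomes 1, 10 and 13, plotted against the distance in kb from the start of the first family gene of each group, with gene bodies as grey bars. Genes with an asterisk had a mean too low to be tested, and the points lie near 0 on chromosome 1, above 0 on chromosome 10 (orange) and below 0 on chromosome 13 (blue).

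The rest of the pathway was described by 8 lists of 123 genes, of which 101 were tested, 4 were called higher and 12 lower, with a median log2 difference of −0.12. Over all genes tested, 3.52% were called higher and 1.97% lower. With 1 well left out, 6 to 11 of the list genes were called in place of 16, the fewest without OSKA + 4OHT replicate 1. Among the rest of the family, 1 of 9 genes was tested. It was *Tsku*, the gene of tsukushi, an inhibitor of BMP and Wnt signals, at 35.2 ± 5.59 TPM in OSKA − 4OHT and 26.0 ± 4.84 TPM in OSKA + 4OHT, with an adjusted p-value of 0.308 by limma with Benjamini-Hochberg adjustment. *Chad*, the gene of chondroadherin, was listed at 0 in every well.

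The enzymes that build the sugar chains gave no calls. In limma, 22 of 23 genes for chondroitin and dermatan sulfate were tested and 0 were called, with a median log2 difference of −0.11 and an unadjusted p-value under 0.05 for 3 genes in each direction. Of the 7 keratan sulfate genes 0 were called by limma, with a median of 0.18 and an unadjusted p-value under 0.05 for 1 higher and 1 lower gene. *Chst5*, a sulfotransferase of keratan sulfate and so of the chains that lumican can carry, had means of 0.301 ± 0.124 and 2.28 ± 0.431 TPM and an adjusted p-value of 0.111 by limma. It was named here after its values were seen, and it passed the filter on low values only through the OSKA + 4OHT wells where it was high, so nothing is read from its test.

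The collagens that the family binds were split. Of 13 tested, *Col3a1* was called higher and *Col12a1* and *Col1a2* lower, with a median of −0.47. The number called was 7 after rescaling by the trimmed mean of log ratios and 5 after quantile normalization. It was 2 with no filter on low genes or without the mean-variance trend, and 0 with the replicate number as a block. *Col3a1*, the type III fibrillar collagen of stretchable tissue, rose from 433.4 ± 12.2 to 1023 ± 140.1 TPM (SD, n = 3), 2.36-fold, with an adjusted p-value of 0.00582 by limma. *Col12a1*, a collagen on the surface of type I fibrils, fell 3.03-fold from 40.7 ± 3.93 to 13.4 ± 1.30 TPM, with an adjusted p-value of 0.00728 by limma. Both calls held with any 1 well left out (adjusted p-values up to 0.0361 and 0.0445 by limma). With the replicate number as a block both calls were lost (adjusted p-value 0.0640 for each by limma). *Col1a2*, a chain of type I collagen named here after its values were seen, fell 1.82-fold from 1641 ± 144.6 to 900.9 ± 154.8 TPM (adjusted p-value 0.0285 by limma). Its call was lost when any well but OSKA + 4OHT replicate 3 was left out, with adjusted p-values of 0.0450 to 0.0972 by limma over the 6 fits.

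Of 19 tested genes for collagen processing and cross-linking, 1 was called higher and 4 lower, with a median of −0.23, and 1 or 2 calls were left when any 1 well was left out. *Lox*, the lysyl oxidase that cross-links collagen, was at 703.7, 635.5 and 524.7 TPM in OSKA − 4OHT and at 155.7, 152.1 and 157.9 TPM in OSKA + 4OHT. It fell 4.00-fold (adjusted p-value 0.00342 by limma) and was called with any 1 well left out. *P4ha1*, a prolyl hydroxylase of collagen, rose 1.85-fold from 71.0 ± 7.82 to 131.5 ± 18.4 TPM (adjusted p-value 0.0336 by limma), a call lost when any well but OSKA + 4OHT replicate 3 was left out (0.0454 to 0.124). The others were *P4ha3*, *Loxl1* and *Loxl4*, relatives of these enzymes named here after their values were seen, which fell 3.04-fold, 2.74-fold and 2.33-fold. Leaving out any well lost the call of *Loxl4* (adjusted p-values 0.0502 to 0.119 by limma), and leaving out any well but OSKA + 4OHT replicate 2 lost that of *P4ha3* (0.0318 to 0.0896). The call of *Loxl1* was lost without OSKA − 4OHT replicate 2 or without any 1 of the OSKA + 4OHT wells (0.0454 to 0.0685).

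Among ligands and receptors that family members bind, 13 were tested, 0 were called higher and 4 lower, with a median of −0.74. *Ccn4*, a matricellular protein that decorin and biglycan bind, fell 3.77-fold from 65.0 ± 4.83 to 17.2 ± 2.71 TPM (SD, n = 3; adjusted p-value 0.00471 by limma). *Igf1r*, *Ccn2* and *Lrp1*, named here after their values were seen, are a growth factor receptor, a matricellular protein and an endocytic receptor bound by decorin. They fell 3.34-fold, 3.0-fold and 1.94-fold, and of the 4 calls only that of *Lrp1* was lost in a fit with 1 well left out, without OSKA + 4OHT replicate 1 (adjusted p-value 0.0556 by limma). With the replicate number as a block, the calls of *Ccn4*, *Igf1r* and *Lrp1* were lost (adjusted p-values 0.0555, 0.0640 and 0.0814 by limma). That of *Ccn2* was kept (0.0499). *Tgfb1*, a ligand that decorin, biglycan, asporin and fibromodulin bind, was not called, at 61.1 ± 22.6 and 24.3 ± 9.62 TPM (adjusted p-value 0.145 by limma). *Tlr2*, a receptor of free biglycan, was not called either, at 11.2 ± 1.23 and 21.0 ± 4.82 TPM (adjusted p-value 0.0829 by limma). Both were named here after their values were seen.

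Of 8 tested proteases known to cut family members, 1 was called higher and 0 lower, with a median of 0.13, and 2 genes were lower at an unadjusted p-value under 0.05. *Adamts4*, an aggrecanase, rose 2.62-fold from 2.90 ± 0.435 to 7.60 ± 0.554 TPM (adjusted p-value 0.0401 by limma), a call lost when any 1 well was left out (0.0864 to 0.148). Among 18 tested proteoglycans without the small leucine-rich fold, 1 was called higher and 2 lower, with a median of 0.07 and 0 to 3 calls with 1 well left out. *Srgn*, the proteoglycan of secretory granules, rose 1.79-fold from 368.6 ± 35.3 to 660.5 ± 28.5 TPM (adjusted p-value 0.0118 by limma). Its call was lost without OSKA − 4OHT replicate 2 and without OSKA + 4OHT replicate 1 or 2 (0.0225 to 0.0595 over the 6 fits). *Gpc4*, a glypican anchored at the cell surface, fell 1.71-fold from 324.2 ± 31.1 to 189.1 ± 17.0 TPM (adjusted p-value 0.0256 by limma), a call that held only without OSKA − 4OHT replicate 3 among the 6 fits (0.0487 to 0.0918). *Sdc2*, a syndecan named here after its values were seen, fell 1.64-fold from 285.0 ± 23.4 to 174.1 ± 4.79 TPM (adjusted p-value 0.0222 by limma), likewise called only without OSKA − 4OHT replicate 3 (0.0416 to 0.0910).

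**Figure D5:**
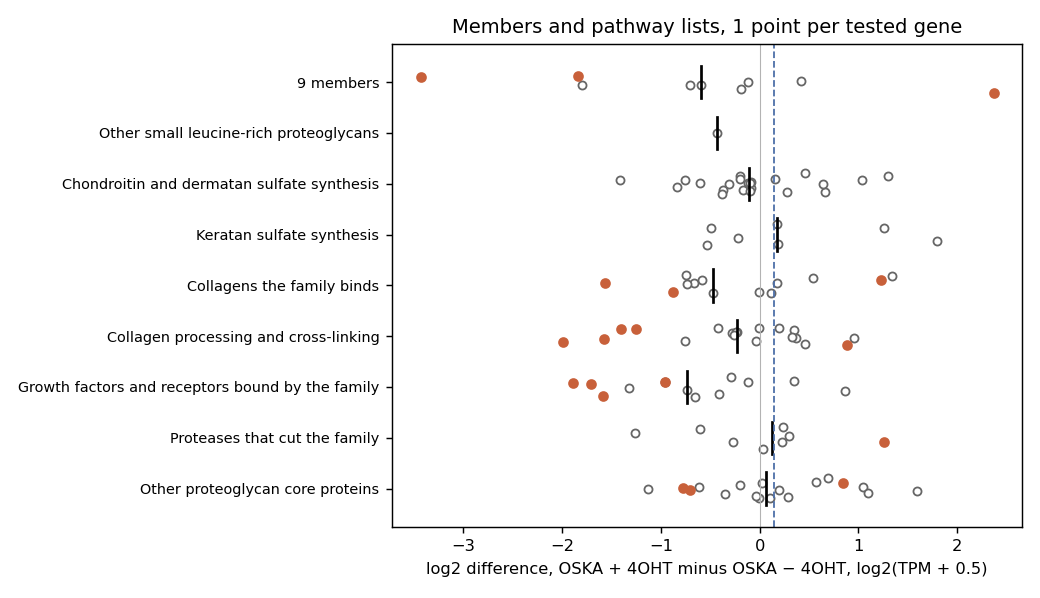
Log2 difference of each tested gene (1 point per gene) for the 9 genes and the 8 pathway lists, with the median of each as a black bar and the median of all genes tested (0.14) as a dashed line. Filled points met the call rule, and the list of ligands and receptors has the lowest median among the 8 lists (−0.74).

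The genes whose profile over the 6 wells lay nearest to each member were found by the root mean square difference of log2(TPM + 0.5), each gene centred on its own mean, among 8798 tested genes that averaged 10 TPM or more. This is a likeness in 6 wells of 2 groups, given without a test. For *Bgn* they were *Rgs16* (0.0839), *Anxa8* (0.123) and *Wnt2* (0.129), and for *Lum* they were *Bst2* (0.120), *Cdh1* (0.173) and *Calml4* (0.177). *Dcn* lay nearest to *Gm9892* (0.0415), *Jmjd6* (0.0611) and *Nfe2l2* (0.0644), and *Prelp* to *Rpl26* (0.0374), *Zfr* (0.0449) and *Sertad4* (0.0458). *Fmod* lay nearest to *Mrpl58* (0.10), *Cir1* (0.115) and *Atf7* (0.117). *Aspn*, with *Man2a1* (0.147), *Cast* (0.155) and *Zc3hc1* (0.165), and *Ogn*, with *Ccpg1* (0.15), *Creg1* (0.172) and *Tiprl* (0.174), had their nearest gene further away than the others. *Omd* and *Podn* were too low for this comparison.

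Markers of other cell types that express the family were also read, and in most lists 1 or 2 genes carried the sum. Osteoblast markers summed to 10.2 to 16.8 TPM in OSKA − 4OHT and 27.2 to 112.8 TPM in OSKA + 4OHT, of which *Alpl* took 11.6, 3.17 and 11.9 TPM and 22.9, 108.1 and 20.2 TPM. *Runx2*, the other tested osteoblast marker, had the lower mean in OSKA + 4OHT (5.27 ± 1.08 and 3.20 ± 0.975 TPM), *Ibsp* was listed at 0 in every well, and none of the list was called. Macrophage markers summed to 117.4 to 130.8 and 73.4 to 83.6 TPM. *Lyz2* carried that difference (95.2 ± 5.63 and 51.8 ± 7.77 TPM) and was the only 1 of the 6 called, while *Cd68* (14.9 and 19.0 TPM) and *Aif1* (0.376 and 1.86 TPM) had the higher mean in OSKA + 4OHT. Chondrocyte markers summed to 17.8 to 19.8 and 20.5 to 36.5 TPM, with *Sox9* called higher, *Col2a1* not called and *Matn1* at 0. Tenocyte markers summed to 10.8 to 15.9 and 6.85 to 11.1 TPM, with 0 of 2 tested genes called. Adipocyte markers, mostly *Lpl*, summed to 9.08 to 16.4 and 20.4 to 27.8 TPM with 0 called and with *Adipoq*, *Plin1* and *Cidec* at 0. Endothelial cell markers, mostly *Tek* and *Pecam1*, summed to 21.4 to 28.9 and 28.1 to 37.6 TPM with 0 called. At an unadjusted p-value under 0.05 by limma, *Alpl*, *Lpl* and *Tek* were higher and 0 tenocyte genes differed. The part of these markers in the levels of the 9 genes was not tested.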

How the data were processed

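PolyA libraries (KAPA Stranded mRNA-Seq Kit) of 6 wells were read as 50-base single ends on an Illumina HiSeq. The authors trimmed the reads with Trim Galore, quantified them with Salmon and deposited TPM per gene and well, each well adding up to 1000000. Versions, annotation and strand setting are not given in the sources used here. The authors also deposited their own comparison, a log2 fold change, a log2 average level, an F score and a p-value per gene. These columns were not used.

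Symbols and positions came from GENCODE M21 on GRCm38 (54097 of 54331 identifiers matched) and promoters from RefSeq on GRCm38.p6, where 7 of the 9 members matched. No promoter was found there for *Dcn* and *Lum*, the members with higher means in OSKA + 4OHT. Those of *Fmod*, *Prelp* and *Podn* were searched but are not shown. *Fmod* and *Prelp* held the SMAD letters and *Podn* the GC box letters. The study used a count model. The deposited values keep no counts, so limma-trend (limma 3.58.1, R 4.3.3) was run on log2(TPM + 0.5) for genes averaging 1 TPM or more over the wells, with Benjamini-Hochberg adjustment, all 6 wells and no block. Calls needed an adjusted p-value below 0.05. The fit and the depth estimate were tested on simulated data. The simulated reads had little noise, unlike the blurred steps of these wells. That test thus does not measure the error of the approximate read numbers. P-values measure the spread between wells that were cultured apart from 3 dpi but came from 1 transduced culture.

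The members and lists were chosen with earlier results of these data known. Named were the 9 members, the called gene with the largest rise and fall of each list, family genes of at least 1 TPM in a group or within 1 Mb of a member, and the 3 nearest profiles of each member with a mean of at least 10 TPM. Approximate reads were TPM times transcript length less 250 bases, over the step of single-transcript genes above 600 bases (Python 3.11.15, pandas 2.3.3). Similar transcripts were searched with BLAST 2.17.0 at 80% identity or more. Alternatives were other pseudocounts (0.1 and 2), other filters (none and 5 TPM), rescaling by the trimmed mean of log ratios, quantile normalization, the replicate number as a block, no mean-variance trend and leaving out each well.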

Additional observations from a re-analysis of the deposited data

How the results depend on the processing

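Over the 14 alternatives, 123 of 124 fitted differences of the 9 genes kept their sign, and the exception was *Fmod*, which was never called, at 0.02 without OSKA + 4OHT replicate 1. The difference of *Bgn* ran from −1.97 to −1.76 and that of *Lum* from 2.16 to 2.53. The number of members called lower was 1 in place of 2 with a pseudocount of 0.1, with no filter, with a filter of 5 TPM (where *Omd* and *Podn* were not tested), with the replicate block and without the mean-variance trend, and 1 to 2 with a well left out. The number called higher was 0 in place of 1 with the replicate block, where *Lum* lost its call. Over all genes, 542 were called higher and 303 lower, and these were 31 and 16 with the replicate block, and 112 to 318 and 63 to 147 with a well left out. Rescaling by the trimmed mean of log ratios called 480 lower. Of the list genes 16 were called, 2 with the replicate block (*Lox* and *Ccn2*), 21 after rescaling by the trimmed mean of log ratios, 18 after quantile normalization and 6 to 11 with a well left out, and 69 of 224 fitted values of these 16 genes no longer met the call rule. *Chst5* was not called as reported and met the rule in 1 of the 12 alternatives in which it was tested, without the mean-variance trend. Higher genes made up 64.1% of the calls, 48.7% after rescaling by the trimmed mean of log ratios and 49.7% after quantile normalization, which moved the median difference of all genes by −0.12 and −0.15. Same-numbered wells correlated at 0.0235 to 0.0837 in their deviations from the group means, under 0.1, yet 5 of 6 wells correlated best with their own number. These values do not decide whether same-numbered wells form pairs. The main fit took the wells as unpaired, and the counts with the replicate block show how much the calls rest on that choice. The OSKA + 4OHT values of *Omd* and *Podn* stand for under 5 reads a well and are limited by depth. The cause of these shifts was not tested.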
